A study of Rattus norvegicus with 5 samples.

Results

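Voltage-gated calcium channel alpha1 genes encode the pore of each calcium channel, and 8 of them were described here in cultured sensory ganglia. The 8 genes (Cacna1a, Cacna1b, Cacna1c, Cacna1d, Cacna1e, Cacna1g, Cacna1h and Cacna1i) were taken by symbol from a combined table of 33014 genes, and all 8 were listed in it. Every sample came from dissociated dorsal root ganglia of wild-type Sprague Dawley rats at postnatal day 10, taken from a single litter of 10 pups. Cells were seeded at 5000 per well, were given PBS (phosphate-buffered saline, a vehicle) 1 day later and were harvested after 8 days of culture, with 3 wells pooled per sample. The 5 samples carry the same labels and form 1 group, so the comparisons are between genes within libraries. Nothing in the labels says that they are separate cell preparations, so each p-value reflects only how far these 5 libraries scatter, and that scatter may be technical.

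An alpha1 subunit carries the voltage sensor, the pore and the binding sites of most calcium channel drugs, while alpha2delta and beta subunits assist its traffic to the membrane and its gating. The CaV2 genes Cacna1a (P/Q-type), Cacna1b (N-type) and Cacna1e (R-type) are best known for calcium entry at nerve terminals that triggers transmitter release. N-type channels of sensory neurons are a drug target in pain, blocked by the cone snail peptide ziconotide and inhibited by G proteins downstream of opioid receptors. The CaV1 genes Cacna1c and Cacna1d encode L-type channels, blocked by dihydropyridines, which also work in muscle and couple activity to gene expression. The CaV3 genes Cacna1g, Cacna1h and Cacna1i encode T-type channels, which open near the resting potential and lower the threshold for firing.

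Libraries held between 21596608 and 27913098 estimated reads. Levels are given in TPM (estimated reads divided by transcript length and scaled to the same total in every library), so they can be compared between genes per length. A gene was called detected at 1 TPM or more in every library. The cultures held markers of neurons (9 of 9 detected), Schwann cells (5 of 5), satellite glia (4 of 4), fibroblasts (6 of 6), smooth muscle and mural cells (5 of 6) and macrophages (4 of 4). Of the skeletal muscle markers 1 of 4 was detected, and Myog was between 0 and 0.0976 TPM. By the same rule 41.3% of all genes were detected. Because the libraries hold RNA of all these cells together, fewer cells of a type and less RNA per cell cannot be told apart.

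Of the 8 alpha1 genes 6 were detected, against 41.3% of all genes in the table. The median member stood at 3.29 TPM, against a median of 0.297 TPM over all genes and 20.5 TPM over all detected genes. Cacna1b was the highest, and its level fell at the 58.7th percentile of detected genes, followed by Cacna1a at the 37.3rd percentile. Cacna1g and Cacna1i were the undetected members and reached 1 TPM in 0 of 5 libraries.

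**Figure D1:**
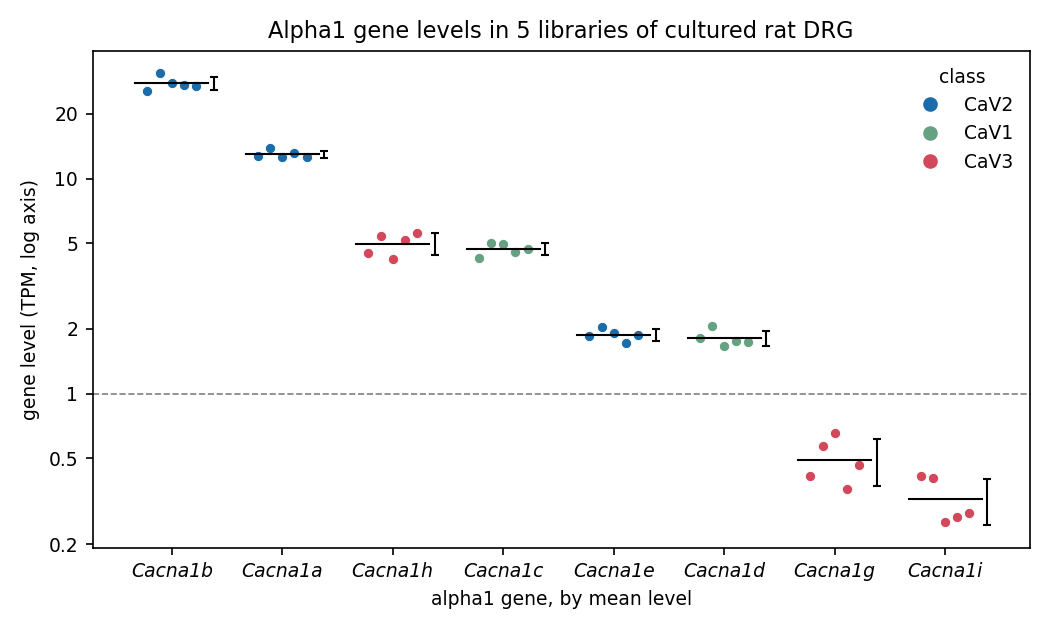
Level of each alpha1 gene in TPM on a log axis, with genes ordered by mean level and coloured by class. Points are the 5 libraries, the horizontal line is the mean and the bar beside it is the SD; the dashed line marks 1 TPM. Cacna1b sits between 25.6 and 30.8 TPM, and Cacna1g and Cacna1i stay below 1 TPM in every library.

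Among the CaV2 genes, Cacna1b had 25.6, 30.8, 27.7, 27.1 and 27.03 TPM in replicates 1 to 5, a mean of 27.7 ± 1.93 TPM (SD, n = 5). Cacna1a had 12.7, 13.8, 12.6, 13.2 and 12.6 TPM in the same libraries, a mean of 12.97 ± 0.522 TPM. Both genes were highest in replicate 2, and the lowest Cacna1b value lay above the highest Cacna1a value. The log2 ratio of Cacna1b over Cacna1a, taken after adding 0.1 TPM to each, was 1.08 ± 0.06 (SD, n = 5; limma adjusted p = 1.30e-09, 5 of 5 libraries higher), and the ratio reached 2.22-fold in the library where it was largest. Cacna1e, the R-type gene, had 1.86, 2.04, 1.92, 1.71 and 1.88 TPM, a mean of 1.88 ± 0.119 TPM. It was a minor CaV2 member in each library, at a log2 ratio of 2.72 ± 0.09 for Cacna1a over Cacna1e (limma adjusted p = 1.25e-12).

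Cacna1b and Cacna1d, at the high and the low end of the detected members, are shown with the 250 bases before their annotated start, since these windows, unlike the others found, lie within 7 bases of the outer end of the annotated gene. The sequences come from RefSeq, with every CpG dinucleotide in capitals, and run 5′ to 3′ along the gene.
Cacna1b, chr3:27944286-27944535, minus strand, GRCr8: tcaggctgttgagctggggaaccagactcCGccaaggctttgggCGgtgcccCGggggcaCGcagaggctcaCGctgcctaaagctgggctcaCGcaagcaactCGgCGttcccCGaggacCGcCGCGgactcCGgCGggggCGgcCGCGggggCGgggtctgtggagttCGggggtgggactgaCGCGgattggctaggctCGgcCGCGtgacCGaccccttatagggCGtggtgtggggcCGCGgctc
Cacna1d, chr16:5527550-5527799, minus strand, GRCr8: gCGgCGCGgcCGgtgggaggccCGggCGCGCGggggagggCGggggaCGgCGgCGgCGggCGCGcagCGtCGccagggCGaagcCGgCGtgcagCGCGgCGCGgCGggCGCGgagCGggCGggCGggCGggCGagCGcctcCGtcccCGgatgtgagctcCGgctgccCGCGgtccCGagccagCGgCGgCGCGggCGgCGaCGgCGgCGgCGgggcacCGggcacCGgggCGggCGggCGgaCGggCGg
The Cacna1b window held 28 CpG dinucleotides and 72.0% G and C, and the Cacna1d window held 56 and 88.8%, against medians of 5 and 51.2% over 33469 promoters of the same length. The window of the gene at the lower level, Cacna1d, was thus the denser in CpG. The GC box GGGCGG, searched on both strands, was in both windows and in 30.5% of all promoters. The CCAAT box CCAAT was in the Cacna1b window and in 34.0% of all promoters, and the TATA box TATAAA, in 12.9% of all promoters, was in neither. The table held windows for 5 of the 8 members. Those of Cacna1a, Cacna1c and Cacna1e end at a start that lies inside the annotated gene and are not shown. For Cacna1c that start is 184 bases inside.

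The L-type genes were expressed at lower levels than Cacna1b and Cacna1a. Cacna1c had 4.26, 5.04, 4.94, 4.56 and 4.70 TPM in replicates 1 to 5, a mean of 4.70 ± 0.309 TPM. Cacna1d, whose channel opens at more negative voltages than that of Cacna1c, had 1.82, 2.05, 1.67, 1.76 and 1.75 TPM, a mean of 1.81 ± 0.148 TPM. Cacna1c was above Cacna1d in every library, and the log2 ratio of Cacna1c over Cacna1d was 1.33 ± 0.13 (limma adjusted p = 3.00e-09). In the newer assembly GRCr8 the span of Cacna1c overlaps that of Dcp1b, an mRNA decapping gene at 9.26 ± 1.32 TPM. Whether the 2 genes share exons was not checked. If they do, the Cacna1c level is uncertain where reads were counted without strand. Smooth muscle also expresses Cacna1c, and the summed level of the 6 smooth muscle and mural markers ranged from 209 to 382 TPM. That sum, like Tagln, Acta2, Cnn1 and Myh11 within it, was highest in replicate 1, where Cacna1c was lowest. Pdgfrb went the other way: it was lowest in replicate 1 (33.3 TPM) and highest in replicate 2 (39.1 TPM), as Cacna1c was. The part of these cells in the Cacna1c level was not tested.

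Among the T-type genes Cacna1h stood far above the others. It had 4.53, 5.43, 4.204, 5.19 and 5.55 TPM in replicates 1 to 5, a mean of 4.98 ± 0.588 TPM. Its channel, CaV3.2, is the T-type form best known from small and medium sensory neurons of rats and mice. Cacna1g had 0.414, 0.571, 0.656, 0.361 and 0.464 TPM, a mean of 0.493 ± 0.120 TPM. Cacna1i had 0.413, 0.407, 0.254, 0.266 and 0.279 TPM, a mean of 0.324 ± 0.0791 TPM. No library of Cacna1h overlapped those of the other T-type genes, and the log2 ratio of Cacna1h over Cacna1i was 3.60 ± 0.30 (limma without moderation, adjusted p = 1.97e-05). The ranges of Cacna1g and Cacna1i overlapped, although Cacna1g was the higher in 5 of 5 libraries. Their log2 ratio of 0.48 ± 0.40 did not pass the threshold (limma adjusted p = 0.0612; 95% interval of the mean from -0.01 to 0.98), and it passed without replicate 1 at 0.60 (limma adjusted p = 0.0280).

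The 8 genes fell into levels that the libraries separated, with 3 neighbouring pairs that did not. From the top the order was Cacna1b, Cacna1a, Cacna1h, Cacna1c, Cacna1e, Cacna1d, Cacna1g and Cacna1i. Of the 28 pairs 25 passed an adjusted p of 0.05 in limma fits of every gene against the lower member of the pair, and the 3 that did not were also the 3 whose TPM ranges overlapped. Nearly all genes pass such a test: the share of 18987 tested genes that differed in either direction was 96.8% from Cacna1a, 96.1% from Cacna1h, 96.7% from Cacna1c, 96.3% from Cacna1e, 96.3% from Cacna1d, 92.0% from Cacna1g and 89.1% from Cacna1i. The count of pairs is near that background, and the sizes of the differences carry the description.

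Neighbours in the order differed by very unequal steps. Cacna1a lay above Cacna1h by a log2 ratio of 1.37 ± 0.15 (limma adjusted p = 2.80e-19). Cacna1h and Cacna1c, a T-type and an L-type gene, were not separated, with a log2 ratio of 0.08 ± 0.18 (limma adjusted p = 0.358; 95% interval from -0.15 to 0.30) and Cacna1h higher in 4 of 5 libraries. Cacna1c lay above Cacna1e by 1.28 ± 0.08 (limma adjusted p = 8.07e-09), and by 0.52 where reads were not divided by transcript length. Cacna1e and Cacna1d were likewise not separated, at 0.06 ± 0.09 (limma adjusted p = 0.579; 95% interval from -0.06 to 0.17). Cacna1d lay above Cacna1g by 1.71 ± 0.30 (limma adjusted p = 4.37e-20). From the highest to the lowest member, Cacna1b over Cacna1i, the log2 ratio was 6.05 ± 0.26, a fold of 66.3 on this scale. Ratios to Cacna1g and Cacna1i depend on the pseudocount: with 1 TPM in place of 0.1, Cacna1b over Cacna1i was 4.44, Cacna1h over Cacna1i 2.17 and Cacna1d over Cacna1g 0.91 on the log2 scale. Each fit reuses the spread of 1 gene for all rows, which can make its p-values too small; without moderation of the variance the same 25 pairs passed, the largest of their adjusted p-values being 0.000334. The exact two-sided sign-flip test cannot go below p = 0.063 with 5 libraries, and 26 of the 28 pairs were at that value.

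**Figure D2:**
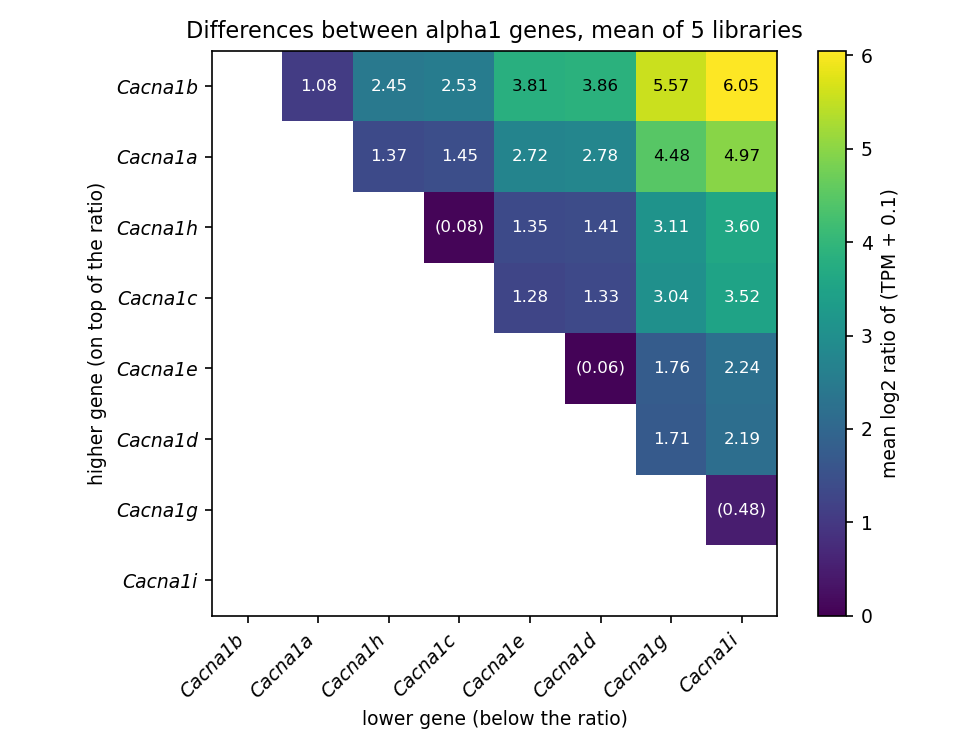
Mean log2 ratio of (TPM + 0.1) over 5 libraries for each of the 28 pairs, with the higher gene in rows and the lower in columns. Values in parentheses did not pass an adjusted p of 0.05 in limma. The pairs in parentheses are Cacna1h over Cacna1c at 0.08, Cacna1e over Cacna1d at 0.06 and Cacna1g over Cacna1i at 0.48.

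As shares of the summed alpha1 level, the CaV2 genes held 77.8%, 77.6%, 78.3%, 77.6% and 76.5% in replicates 1 to 5, a mean of 77.5% ± 0.646. The CaV1 genes held 11.9% ± 0.218 and the CaV3 genes 10.6% ± 0.764. The make-up was close between libraries, and the lowest CaV1 share, 11.7%, lay just above the highest CaV3 share, 11.6%. Cacna1b alone held 50.4% ± 0.816 of the sum and Cacna1a 23.7% ± 0.725. Cacna1h carried most of the T-type level, with 9.08% ± 0.916 of the whole sum, against 0.898% ± 0.205 for Cacna1g and 0.590% ± 0.142 for Cacna1i. These are shares of RNA per length, not of channels or currents.

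The alpha1 genes differed in how far they varied between libraries, and 5 of 8 were highest in the same one. The coefficient of variation (SD over mean) was 6.97% for Cacna1b, 4.03% for Cacna1a, 6.57% for Cacna1c, 6.32% for Cacna1e, 8.17% for Cacna1d and 11.8% for Cacna1h, and it was 24.2% for Cacna1g and 24.4% for Cacna1i. Among genes within 2-fold of its level, Cacna1b varied more than 77.4% of them, Cacna1h more than 62.9%, Cacna1g more than 30.9%, Cacna1c more than 22.9%, Cacna1i more than 21.1%, Cacna1a more than 20.1%, Cacna1d more than 12.4% and Cacna1e more than 5.77%. Cacna1a, Cacna1b, Cacna1c, Cacna1d and Cacna1e (5 of 8) had their highest value in replicate 2, as did 27.3% of all detected genes. In that library Cacna1b was 14.7% and Cacna1d 17.5% above the mean of the other libraries. Cacna1h was highest in replicate 5 and lowest in replicate 3.

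Replicate 2 also differed in some cell type markers. Of all detected genes 27.3% were highest there, and the share of genes that were lowest there was not computed. Of the 9 neuron markers 4 were highest there and their summed level was 7389 TPM, against 6984 to 7097 TPM in the other libraries. Of the 5 Schwann cell markers 4 were highest there, with a sum of 6068 TPM, against 5296 to 6033 TPM elsewhere. That sum was close to the 6033 TPM of replicate 3, and replicate 1 was the lowest. The exception, Mbp, was at 873 TPM in replicate 2 and highest in replicate 4 at 1004 TPM. Of the 4 satellite glia markers 3 were lowest there, with a sum of 8263 TPM, against 8359 to 10857 TPM elsewhere. Apoe alone made up 7852 TPM of that sum, and the remaining marker, Kcnj10, was highest there at 32.9 TPM. All 4 macrophage markers were lowest there, with a sum of 555 TPM, against 727 to 872 TPM elsewhere. Relative to the geometric mean of the neuron markers, the coefficient of variation was 3.89% for Cacna1b, 3.67% for Cacna1a, 3.19% for Cacna1c, 4.93% for Cacna1e, 7.48% for Cacna1d and 10.8% for Cacna1h, lower than the unscaled value for each of these detected members. For Cacna1g it was 22.0%, below the unscaled 24.2%, and for Cacna1i 25.5%, above the unscaled 24.4%. The share of all genes whose coefficient falls in this way was not computed, and no other cell type was used for scaling. The neuron scale was lowest in replicate 1 (0.947) and highest in replicate 2 (1.04). The Schwann cell sum was lowest and highest in the same libraries. The part of the cell mixture in the higher alpha1 levels of replicate 2 was not tested.

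**Figure D3:**
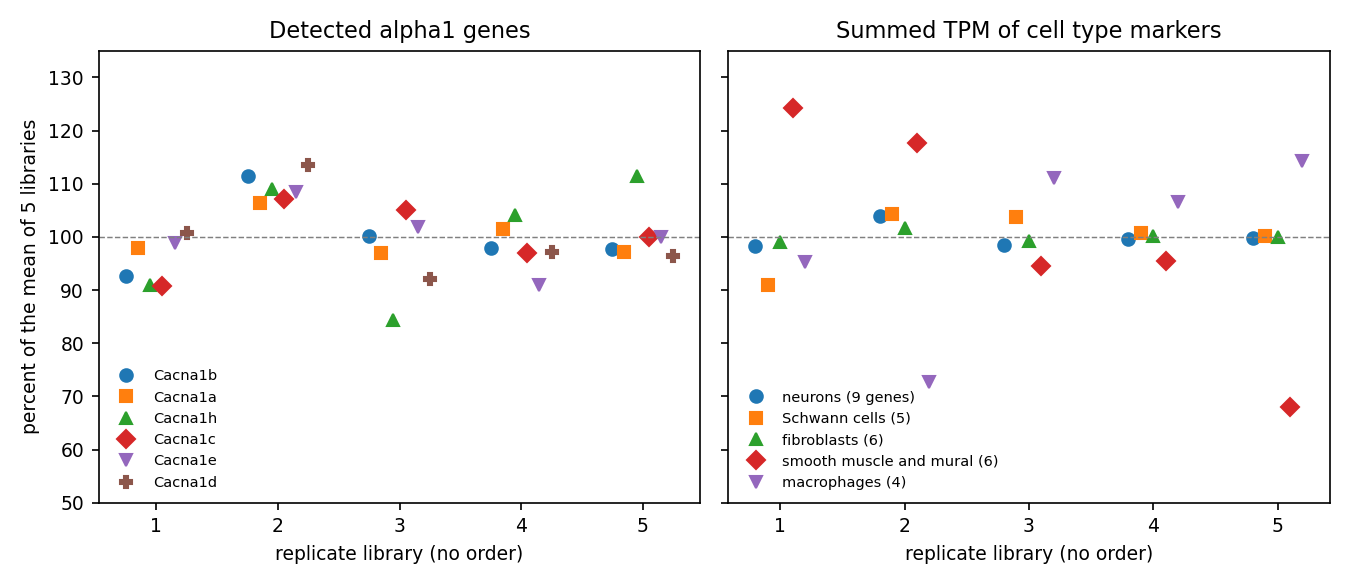
Level of each detected alpha1 gene (left) and summed TPM of cell type markers (right) in each of the 5 libraries, as percent of the mean over the libraries; the number of genes in each marker sum is in parentheses. In replicate 2 all 6 detected alpha1 genes lie above their mean, and the macrophage sum of 555 TPM lies furthest below its own.

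At the transcript level the files name part of each gene. RefSeq accessions, stripped of their versions, were looked up in the GRCr8 gene table, and the named transcripts were compared with the gene level. They held all of the Cacna1c level, 95.8% to 97.5% of Cacna1e, 96.6% to 100.0% of Cacna1g and 83.3% to 89.5% of Cacna1d. For Cacna1a they held only 16.2% to 30.6% and for Cacna1b 15.2% to 30.4%, the rest being in transcripts that the table does not name. The 1 named transcript of Cacna1h, NM_153814.2, was at 0 reads in every library, and that of Cacna1i had reads in 2 of 5 libraries. Levels of these genes therefore rest on the combined table.

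Where transcripts were named, Cacna1e had a steady leading form and Cacna1d did not. XM_039091017.1, of 14894 bases, held 67.6% ± 9.51 of the named Cacna1e level and was the leading form in each library. The curated NM_019294.3, of 7367 bases, held 6.32% ± 2.32. Cacna1d had 16 named transcripts, 10 of them with reads in some library, and 4 different ones led in the 5 libraries. XM_017600060.2 held 57.7% and 58.6% in replicates 1 and 5, and 0% in replicates 2 and 3. XM_017600062.2 held 79.8% in replicate 2 and 0% in replicates 1, 3 and 5. These Cacna1d models differ little in length (XM_017600060.2 has 9165 bases and XM_017600062.2 has 9141). The Cacna1d gene level varied by 8.17% between the same libraries.

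Cacna1g also changed leader between libraries. NM_031601.4 held 100.0% and 85.1% of the named level in replicates 1 and 2 and 0% in the others, where XM_008768000.3 or NM_001308302.1 led. The named Cacna1g transcripts had 277 estimated reads over the 5 libraries together. Transcripts of a gene share reads, which the quantification model divides among them. The part of this division in the changes of leader of Cacna1d and Cacna1g was not tested. For Cacna1b, NM_147141.2 led in every library with 75.6% ± 10.5 of the named part. Cacna1c was listed with a single named transcript, NM_012517.2, of 8257 bases.

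**Figure D4:**
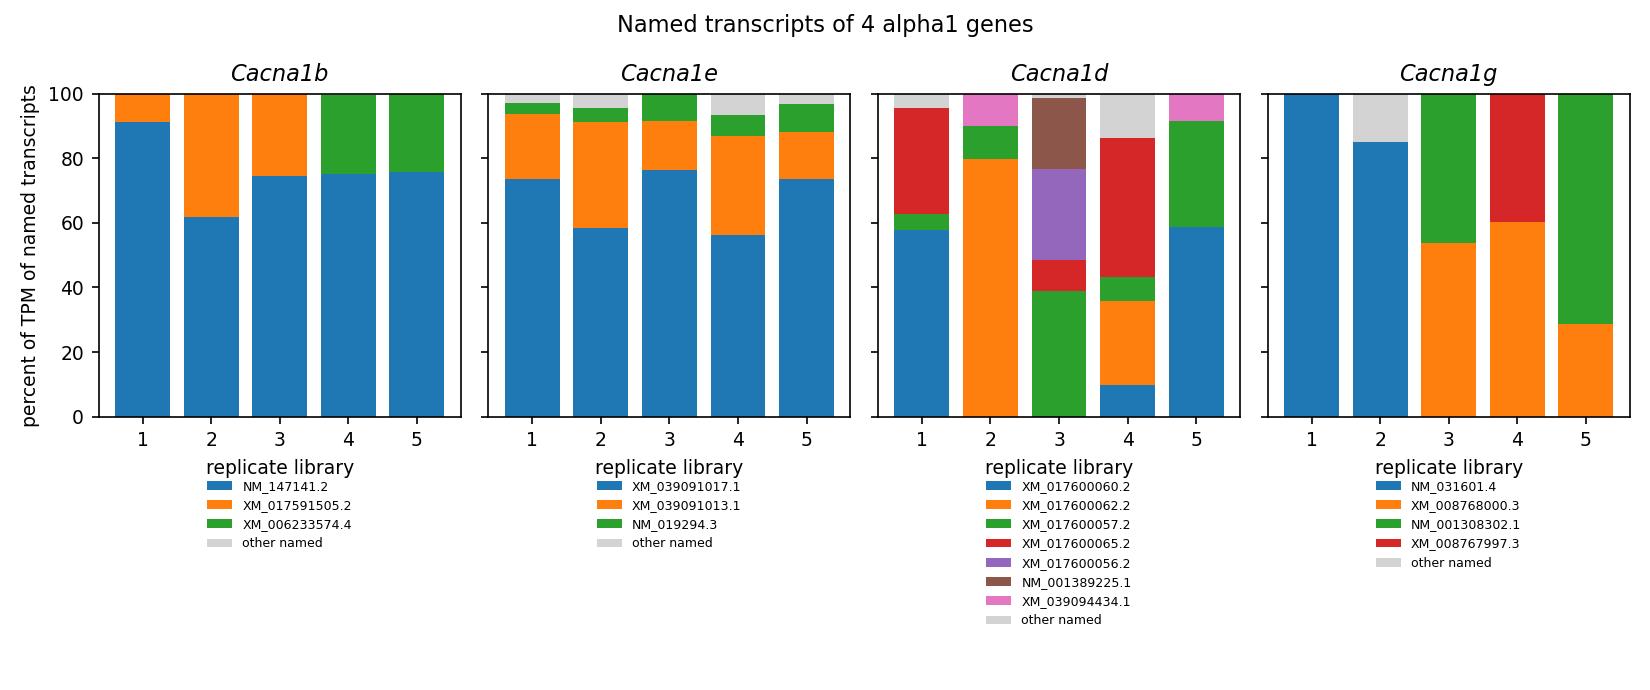
Share of the TPM of named transcripts held by each transcript, in percent, for Cacna1b, Cacna1e, Cacna1d and Cacna1g in each of the 5 libraries. XM_039091017.1 leads Cacna1e throughout, whereas Cacna1d and Cacna1g have different leading transcripts in different libraries.

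Reads behind the levels could be counted for the members that their named transcripts recovered within 10%. Cacna1c had 2812 estimated reads over the 5 libraries, and the exact Poisson 95% interval of its mean level was 4.53 to 4.88 TPM. Cacna1e had 1951 reads and an interval of 1.80 to 1.97 TPM, and Cacna1g had an interval of 0.437 to 0.555 TPM. The labels mention no molecular identifiers, so PCR copies may be counted as separate reads, and the intervals cover counting error alone. Counting error alone would give a coefficient of variation of 4.23% for Cacna1c, 5.07% for Cacna1e and 13.7% for Cacna1g, against measured values of 6.57%, 6.32% and 24.2%. The edgeR biological coefficient of variation, which removes counting error, was 5.16% for Cacna1c, 5.51% for Cacna1e and 14.5% for Cacna1g, against a median of 4.98% over 8871 genes. Each estimate draws on other genes, and the median is not matched for level. By its measured coefficient of variation, Cacna1g varied more than 30.9% of genes within 2-fold of its level.

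Other members of the alpha1 family were scarce, apart from the sodium leak channel. Nalcn, whose product carries a steady sodium leak and is a relative of the alpha1 subunits, had 5.88 ± 0.201 TPM, more than Cacna1c in every library but less than Cacna1a. Cacna1s, the skeletal muscle L-type gene, had between 0.115 and 0.265 TPM. Cacna1f, the retinal L-type gene, had between 0 and 0.0227 TPM and was listed at 0 in 1 library.

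The partner subunits stood above the alpha1 genes in summed level. Summed alpha2delta genes were at 101 ± 4.74 TPM and summed beta genes at 138 ± 3.77 TPM, against 54.8 ± 3.18 TPM for the summed alpha1 genes. In the same libraries the alpha2delta sum was between 1.73 and 1.91 times the alpha1 sum, and the beta sum between 2.39 and 2.58 times. The spans of Cacnb3 and Cacnb1, at 93.9 and 29.7 TPM, overlap those of the abundant genes Tuba1c and Rpl19 in GRCr8. Whether exons are shared was not checked. If they are, the beta sum is uncertain without a known strand setting. The same holds for Cacna2d4 in the alpha2delta sum, since its span overlaps that of Adipor2, at 45.9 TPM. Cacna2d1, an alpha2delta gene whose product binds gabapentin, was at 77.4 ± 4.00 TPM, and the lowest of the 8 were Cacna2d4 at 6.56 and Cacnb2 at 1.84 TPM. Of the 8 gamma subunit genes 4 were detected, a share near the 41.3% of all genes, led by Cacng7 at 46.1 ± 4.19, Cacng4 at 38.3 ± 3.47 and Cacng3 at 34.5 ± 3.01 TPM. Most gamma genes are better known as partners of AMPA-type glutamate receptors. Cacng1, the skeletal muscle gamma subunit, and Cacng6 were the lowest, at 0 in 3 and 2 of the libraries.

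Genes that place or regulate calcium channels at terminals were widely detected. Of 15 presynaptic partners 14 were detected, against 41.3% of all genes, led by Dpysl2 (CRMP2, which binds the N-type channel) at 105 ± 4.16 and the SNARE gene Snap25 at 101 ± 6.88 TPM. The exception was Tspoap1, an adaptor that joins RIM proteins to calcium channels, at 0.218 ± 0.0429 TPM, and Ppfia4 was the next lowest at 3.27 TPM. Rims2 and Rims1, whose products hold channels at release sites, were at 11.2 and 3.74 TPM. All 13 G protein subunit genes were detected, led by Gnb1 at 475 ± 7.11, Gnai2 at 472 ± 7.55 and Gnb2 at 428 ± 14.9 TPM, with Gnb3 and Gng7 lowest at 3.13 and 2.02 TPM. Freed beta-gamma subunits of these proteins bind and inhibit CaV2 channels.

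Genes of channel traffic and turnover were detected for 10 of 15, against 41.3% of all genes. The highest were Lrp1 at 97.4 ± 2.28, Usp5, which removes ubiquitin from CaV3.2, at 93.8 ± 1.84, and Stac2, an adaptor of L-type channels, at 76.4 ± 5.55 TPM. Its relative Stac stood at 44.7 ± 1.63 TPM, and Stac3, the skeletal muscle form, was the lowest of the list at 0.1503 ± 0.131 TPM. The RGK proteins inhibit high-voltage-activated channels; of their genes Gem was detected at 13.5 ± 0.766 TPM, while Rem1, Rem2 and Rrad averaged 0.846, 0.665 and 0.654 TPM.

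Calcium sensors and effectors completed the lists. Of 10 calcium-binding regulators 8 were detected, against 41.3% of all genes. Those with high levels included Calm2 at 794 ± 13.02 and Calm3 at 519 ± 18.6 TPM. Both encode calmodulin, which governs calcium-dependent inactivation and facilitation of the channels. Caln1 and Cabp5 were the lowest, at 0.325 and 0 TPM. Of 17 calcium-activated effectors 14 were detected, against the same 41.3%. They were led by the calcineurin subunit gene Ppp3r1 at 119.9 ± 2.51, the kinase gene Camk2d at 86.4 ± 4.21 and the calcineurin gene Ppp3ca at 74.3 ± 2.66 TPM. The lowest were Kcnmb1 and Kcnn2, at 0.996 and 0.849 TPM; Kcnmb1 overlaps Kcnip1 in GRCr8.

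The genes closest in level to Cacna1b were found by the root mean square difference of log2(TPM + 0.1) over the 5 libraries. In the whole table these were LOC120093083 at 0.0392, the semaphorin gene Sema6d at 0.0403 and the semaphorin gene Sema6a at 0.0421. Within the lists of channel partners and effectors they were Kcnmb4, a BK channel subunit gene, at 0.06247, Cacnb1 at 0.109 and Ncs1, a neuronal calcium sensor gene, at 0.120. This measure reflects level in a single condition, and it compares no conditions.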

How the data were processed

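RNA of 5 pooled-well samples was sequenced after poly-A selection. Per the submitters' processing notes, Trim Galore 0.6.6, cutadapt 2.8 and Salmon 1.5.1 were used with the rat build mRatBN7.2. Neither their order nor the strand setting is given in the sources used here. Gene-level TPM of 33014 symbols come from a combined table that the authors deposited, and the deposited quantification files hold TPM and estimated counts of reads, per the file headers, for 98811 transcripts, with lengths. Of these transcripts 67330 were named through the GRCr8 RefSeq table. The alpha1 genes and all lists were chosen with earlier results of these data known.

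Within-library log2 ratios used a pseudocount of 0.1 TPM over genes with a mean TPM of at least 0.1. They were fitted with limma 3.58.1 (intercept only, variance trend, Benjamini-Hochberg over all genes of a fit, two-sided). Biological variation was estimated with edgeR 4.0.16 (TMM, filterByExpr) on estimated counts rounded to whole numbers, without a test. Both steps were also run on simulated data. For limma that run was checked for recovery of simulated differences, not for the share of unchanged genes called. Poisson intervals are at 95%. The text names all 8 alpha1 genes, Cacna1f, Cacna1s and Nalcn, the 3 highest and up to 2 lowest members of each regulator list (apart from some that are not reported here), and the 3 genes nearest to Cacna1b in each source; Rims1, Rims2, Stac, Gem, Rem1, Rem2 and Rrad were added after their values were seen, for their known action on the channels. Alternatives covered thresholds, pseudocounts, filters, test settings, transcript sums, scaling and left-out libraries. No protein sequence was used here.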

Additional observations from a re-analysis of the deposited data

How the results depend on the processing

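The count of detected alpha1 genes stayed at 6 with each library left out in turn (lowest 6, highest 6) and was 4 at a threshold of 2 TPM, and sums of named transcripts, which recovered only 3 members, gave 2. The 25 pairs past the threshold ranged from 25 to 26 with a library left out; they became 3 of 3 pairs with named transcripts and 3 of 3 with depth-scaled reads not divided by length, since only 3 members could be used, and 0 with the exact sign-flip test, which cannot pass. Without division by length Cacna1c over Cacna1e was 0.52 in place of 1.28, and Cacna1e over Cacna1g was 2.79 in place of 1.76. Cacna1g over Cacna1i was the sole pair to gain a call, without the variance trend (limma adjusted p = 0.0180) and without replicate 1; no direction turned. The share of CaV2 genes ranged from 77.4% to 77.8% with a library left out; it could not be had from named transcripts or reads, because the other members were not recovered. Named transcripts gave no usable sum for Cacna1a, Cacna1b, Cacna1d, Cacna1h and Cacna1i, and Cacna1g rests on 277 reads. No paired analysis was possible because all libraries form 1 group and leave no samples to pair across groups; the ratios between genes were taken within each library. Removing the variance moderation and exchanging the genes of a ratio were chosen after seeing the data, as was scaling by neuron markers.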
